A study of Mus musculus with 10 samples.

Results

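The 9 genes described here encode proteins that start, restrain and clear blood clots: F3, Tfpi, F2r, Procr, Thbd, F13a1, Plat, Plau and Plaur. They were chosen by name, and all 9 had a probe set on the expression arrays, out of 18194 genes with 1. A gene was represented by its brightest probe set, the one with the highest mean over the 10 arrays, among those annotated with that symbol alone. The 9 genes had 15 such probe sets in all, and all 9 passed the filter on low values (2 or more arrays at a log2 value of at least 5).

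Lung RNA came from ICR mice in a model of bronchopulmonary dysplasia, a chronic lung disease of preterm infants given oxygen. The hyperoxia pups, called BPD in the sample titles, breathed 80% oxygen, and the room-air pups are called WT there. The groups were 29 days of hyperoxia (P29 hyperoxia, 3 arrays), 29 days of room air (P29 room air, 2 arrays), 14 days of hyperoxia (P14 hyperoxia, 3 arrays) and 14 days of room air (P14 room air, 2 arrays). Exposure began within 12 h of birth in pups pooled and allotted at random, and nursing dams changed places between the exposures every 24 h, so all groups share fostering and strain. Whole lungs were dissected by hand and rinsed, and the labels do not say whether an array holds 1 animal or several, so the p-values rest on variation between arrays that may be technical.

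Clotting starts when tissue factor, the product of F3, meets circulating factor VII; the thrombin that follows cleaves fibrinogen, signals to cells through the receptor encoded by F2r, and activates factor XIII, which cross-links fibrin. The inhibitor encoded by Tfpi blocks the first step, while thrombomodulin (Thbd) on endothelium turns thrombin into an activator of the anticoagulant protein C. The endothelial protein C receptor (Procr) binds protein C. Fibrin is dissolved by plasmin, which is made by the tissue activator (Plat) or by urokinase (Plau) held on its receptor (Plaur). The lung is rich in tissue factor and thrombomodulin, and fibrin collects in the air spaces when the alveolar barrier is injured.

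Promoter windows of 300 bases, 250 before and 50 from the transcript start on, were found in the RefSeq sequences of build GRCm38.p6 for 6 of the 9 genes (8 windows); Thbd, Plat and Plau had none. Windows were searched on both strands for 7 motifs: AP-1 (TGANTCA), the Sp1 GC box (GGGCGG), Egr1 (GCGTGGGCG), the Klf CACCC box (CCACACCC), the hypoxia response core (ACGTG), the antioxidant response core (TGACNNNGC) and the TATA box (TATAAA). The AP-1 letters, which Fos and Jun factors can bind, stood in 4 of the 8 windows and in 7.8% of all 32841 windows of this length. The 4 windows belong to 4 of the 6 genes with a window. These 4 windows are shown, with AP-1 matches in capitals, because they belong to 3 genes that were higher in hyperoxia at both ages (F3, Procr and F2r) and to 1 that was not (Plaur). The F3 window is chr3:121723287-121723586 (+ strand), that of Procr chr2:155750967-155751266 (+), that of F2r chr13:95618417-95618716 (-) and that of Plaur chr7:24462233-24462532 (+).
F3: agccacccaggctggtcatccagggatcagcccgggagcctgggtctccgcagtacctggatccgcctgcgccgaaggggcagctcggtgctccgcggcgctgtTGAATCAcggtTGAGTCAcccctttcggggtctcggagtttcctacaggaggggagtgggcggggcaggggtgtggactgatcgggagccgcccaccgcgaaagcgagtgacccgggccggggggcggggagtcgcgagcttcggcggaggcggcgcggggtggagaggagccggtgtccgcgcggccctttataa
Procr: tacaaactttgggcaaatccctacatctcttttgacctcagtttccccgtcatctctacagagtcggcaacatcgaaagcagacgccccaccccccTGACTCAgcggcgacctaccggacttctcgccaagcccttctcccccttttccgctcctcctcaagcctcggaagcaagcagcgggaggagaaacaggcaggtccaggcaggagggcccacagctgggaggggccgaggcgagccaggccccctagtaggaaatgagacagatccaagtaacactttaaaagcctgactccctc
F2r: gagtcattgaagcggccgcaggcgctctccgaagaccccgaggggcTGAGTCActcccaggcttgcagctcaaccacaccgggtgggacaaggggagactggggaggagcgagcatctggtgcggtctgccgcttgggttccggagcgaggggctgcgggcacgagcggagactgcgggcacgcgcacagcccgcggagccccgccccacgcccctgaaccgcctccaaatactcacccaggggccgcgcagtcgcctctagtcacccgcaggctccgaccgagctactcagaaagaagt
Plaur: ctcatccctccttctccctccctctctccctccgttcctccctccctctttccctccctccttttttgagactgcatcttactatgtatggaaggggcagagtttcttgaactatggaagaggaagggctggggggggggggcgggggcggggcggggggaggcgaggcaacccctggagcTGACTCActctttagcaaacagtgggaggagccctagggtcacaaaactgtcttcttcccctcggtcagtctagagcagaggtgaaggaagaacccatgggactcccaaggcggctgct
Counted from the transcript start, the AP-1 matches of F3 began at -146 and -135, and those of Procr, F2r and Plaur at -154, -204 and -69. An antioxidant response core overlapped the AP-1 match in Procr (from -154) and in F2r (from -206), and 12.4% of all windows held that core. The GC box was found in F3, Tfpi, Plaur and F2r and in 35.7% of all windows. The CACCC box was found in F3 alone among these genes (3.6% of all windows), the hypoxia core in Tfpi alone (19.6%), the TATA letters in F3 and Tfpi (13.6%) and the Egr1 letters in none of them (0.6%). A match is a run of letters, not a measured site. F13a1 and, on its brightest probe set, Tfpi were also higher in hyperoxia at both ages, and their windows hold no AP-1 letters.

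Some arrays stood apart in ways that touch the comparisons. Actin control probes, a measure of RNA integrity, were brighter at the 3' end than at the 5' end by 1.33 to 2.21 (log2) in the 6 hyperoxia samples, against 0.32 to 0.74 in the 4 room-air samples. Y-linked transcripts were high (mean 7.68 to 8.71) on all P14 arrays and low (3.57 and 4.04) on both P29 room-air arrays. P29 hyperoxia replicate 1 was high (8.51), replicate 2 low (3.47), and replicate 3 carried both these transcripts (7.71) and the female transcript Xist (11.94). All 6 lung markers were bright on all arrays except the transcription factor gene Nkx2-1 (5.79 to 7.20), with surfactant protein C, Sftpc, at 14.66 to 14.89.

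At P29, 6 of the 9 genes were higher in hyperoxia than in room air and 2 were lower at a limma adjusted p under 0.05. Over all 14989 genes tested, 34.2% were higher and 25.5% lower, so the 2 falls lie near the background share. The median log2 difference (hyperoxia minus room air) of the 9 genes was 0.55, and that of all genes 0.04. The arrays of the groups did not overlap for 6 genes in the higher direction and 2 in the lower (41.2% and 33.1% of all genes). At P14, 5 were higher and 1 lower, against 32.3% and 22.8% of all genes, with a median of 0.42 against 0.04. Arrays did not overlap there for 6 genes in the higher direction and 1 in the lower (39.6% and 31.7%). At P29, 6 were called higher and 3 lower without hyperoxia replicate 3, and 5 higher and 2 lower with the female hyperoxia array alone.

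**Figure D1:**
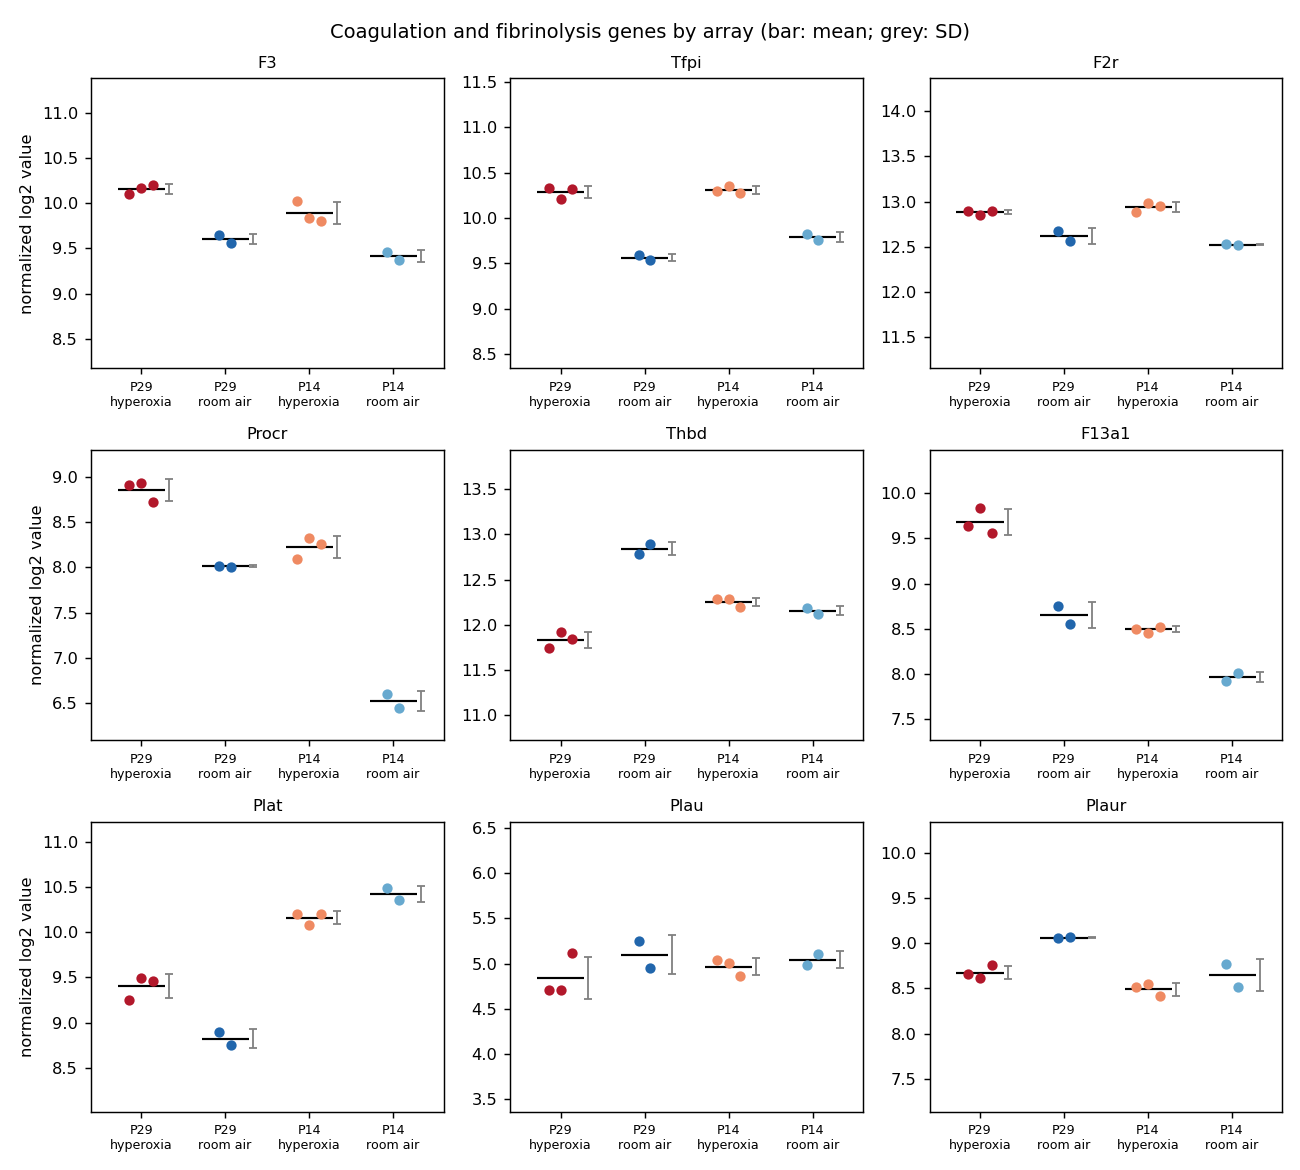
Normalized log2 value of each gene's brightest probe set (vertical axis, of equal span in each panel) on each of the 10 arrays by group; points are arrays, black bars group means and grey bars the SD. The highest groups are P29 hyperoxia for F3, Procr and F13a1 and P29 room air for Thbd and Plaur.

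F3, the trigger of clotting, was higher in hyperoxia at both ages. Its normalized log2 values were 10.10, 10.17 and 10.20 in P29 hyperoxia, against 9.65 and 9.56 in P29 room air, and 10.03, 9.84 and 9.80 in P14 hyperoxia, against 9.46 and 9.37 in P14 room air. All hyperoxia arrays lay above all room-air arrays, whatever the age. The difference was 0.55 ± 0.09 (SE) at P29 (adjusted p = 0.000306), a 1.47-fold excess, and 0.47 ± 0.09 at P14 (adjusted p = 0.00103). No neighbouring pair among the 4 groups overlapped in the order P29 hyperoxia, P14 hyperoxia, P29 room air, P14 room air.

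Tfpi, the inhibitor of that trigger, gave different answers on its 4 probe sets. On the brightest, 1438530_at, it was at 10.33, 10.21 and 10.32 in P29 hyperoxia, against 9.59 and 9.54 in P29 room air, and at 10.30, 10.36 and 10.28 in P14 hyperoxia, against 9.83 and 9.75 in P14 room air. That is 0.72 ± 0.08 higher (SE) at P29 (adjusted p = 1.68e-05) and 0.52 ± 0.08 at P14 (adjusted p = 0.000219). With 27615 probe sets fitted together, 1451791_at was higher at P29 by 0.87 ± 0.08 (adjusted p = 2.12e-05), with 0.12 ± 0.08 at P14 (adjusted p = 0.236). The probe set 1451790_a_at ran the other way: it fell by 0.45 ± 0.10 at P29 (adjusted p = 0.00362) and by 0.69 ± 0.10 at P14 (adjusted p = 0.000355). The last, 1452432_at, stood at 0.07 ± 0.11 and -0.17 ± 0.11 and was not called at either age. With the mean of the 4 probe sets, the P29 value was 0.30 and still called, and the P14 value was -0.05 (adjusted p = 0.564). Which transcript forms each probe set detects was not analysed here, and the sign of the Tfpi response depends on the probe set.

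**Figure D2:**
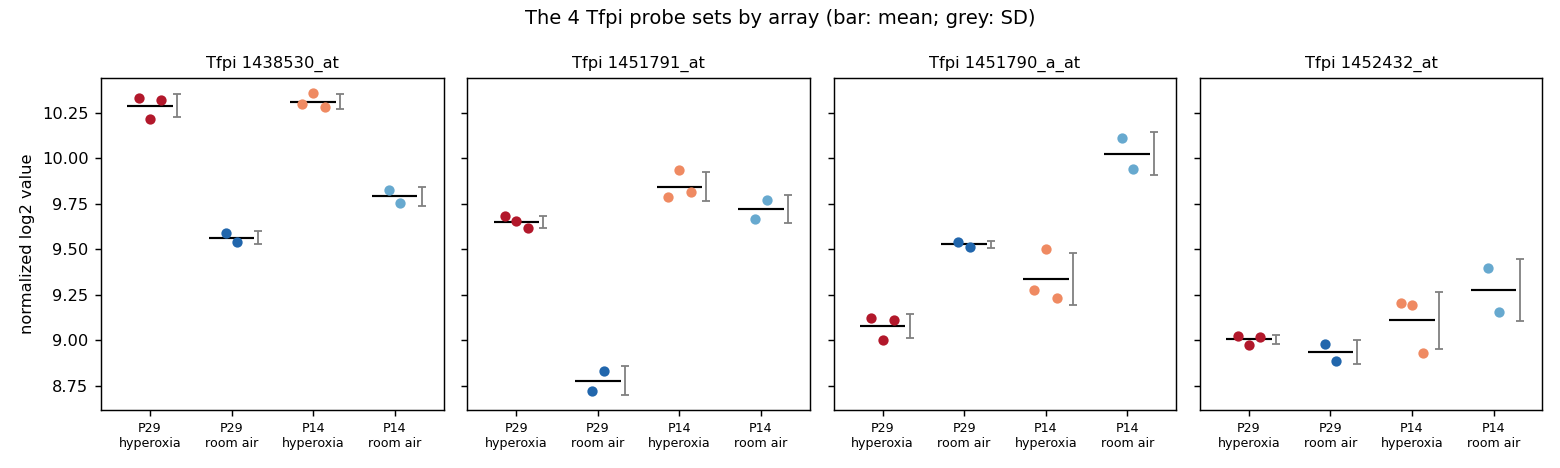
Normalized log2 value of the 4 Tfpi probe sets (vertical axis) on each array by group; points are arrays, black bars means and grey bars the SD. Hyperoxia arrays lie above room-air arrays of the same age on 1438530_at and below them on 1451790_a_at; levels of different probe sets are not comparable.

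F2r, the main thrombin receptor of the vessel wall, was modestly higher in hyperoxia. It was at 12.90, 12.85 and 12.90 in P29 hyperoxia, against 12.68 and 12.56 in P29 room air, and at 12.88, 12.99 and 12.95 in P14 hyperoxia, against 12.53 and 12.53 in P14 room air. Hyperoxia arrays of the 2 ages overlapped each other and lay above all room-air arrays. The difference was 0.26 ± 0.07 (SE) at P29 (adjusted p = 0.0105) and 0.42 ± 0.07 at P14 (adjusted p = 0.000845), and the second probe set gave 0.35 and 0.37. The P29 call was lost with Y-linked gene level as a term (0.23, adjusted p = 0.0704) and with arrays set to their 75th percentile (0.13, adjusted p = 0.155). It was also lost when room air replicate 2 was left out (0.21) and with the female hyperoxia array alone (0.23). Of the other thrombin-type receptors, F2rl2 alone was tested; it fell by 0.31 ± 0.11 at P29 (adjusted p = 0.0289) and by 0.47 ± 0.11 at P14 (adjusted p = 0.00352), while F2rl3 was below the filter and F2rl1 had no probe set of its own symbol alone.

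Procr, the endothelial protein C receptor, had the largest P14 response of the 9 genes. It was at 8.91, 8.93 and 8.72 in P29 hyperoxia, against 8.02 and 8.003 in P29 room air, and at 8.09, 8.33 and 8.25 in P14 hyperoxia, against 6.61 and 6.45 in P14 room air. P14 room air stood well below the other groups. The gene was 1.79-fold higher at P29 (0.84 ± 0.10, SE, adjusted p = 3.75e-05) and 3.24-fold higher at P14 (adjusted p = 7.61e-07), where it alone of the 9 passed 2-fold upwards (3.94% of all genes did). The P29 effect was smaller than the P14 effect by 0.85 ± 0.14 on the log2 scale (adjusted p = 0.00147). In room air its level was 2.80-fold higher at P29 than at P14 (adjusted p = 1.4e-06), and in hyperoxia 1.55-fold higher (adjusted p = 0.000437).

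Thbd, thrombomodulin, was lower in hyperoxia at P29. Its values were 11.74, 11.92 and 11.84 in P29 hyperoxia, against 12.79 and 12.89 in P29 room air, and 12.28, 12.28 and 12.20 in P14 hyperoxia, against 12.19 and 12.12 in P14 room air. The P29 groups were the lowest and the highest of the 4, with both P14 groups between them. Thbd was 2.01-fold lower at P29 (-1.01 ± 0.08, SE, adjusted p = 3e-06), one of the 2.38% of genes that fell by 2-fold or more. At P14 the difference was 0.10, with a 95% interval of -0.08 to 0.28 (adjusted p = 0.328). The effects differed by -1.10 ± 0.12 (adjusted p = 0.000103). With age, Thbd rose 1.61-fold in room air (0.68 ± 0.09, adjusted p = 0.000103) and fell by 0.42 ± 0.07 in hyperoxia (adjusted p = 0.00164).

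Endothelial markers were set beside Thbd and Procr. Of 12 such markers 0 were higher and 9 lower at P29, with a median of -0.70, and 3 were higher and 5 lower at P14, with a median of -0.17. The log2 of their summed level was 14.46 to 14.57 in P29 hyperoxia, against 15.20 to 15.31 in P29 room air, and 14.79 to 14.89 in P14 hyperoxia, against 15.02 on both arrays of P14 room air. No marker was below the filter. Within each age, Procr was higher in hyperoxia, where this sum was lower. Thbd was lower with the sum at P29, and at P14 the sum was lower while no Thbd difference was called. The part of endothelial abundance in either result was not tested. In whole lung, fewer cells of a type and less RNA per cell cannot be told apart.

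F13a1, the A subunit of factor XIII, found in monocytes, macrophages and platelets, was higher at both ages. It was at 9.64, 9.83 and 9.56 in P29 hyperoxia, against 8.76 and 8.56 in P29 room air, and at 8.50, 8.46 and 8.53 in P14 hyperoxia, against 7.93 and 8.01 in P14 room air. P29 hyperoxia stood apart above the rest, and no neighbouring groups overlapped. The gene was 2.03-fold higher at P29 (1.02 ± 0.10, SE, adjusted p = 9.11e-06), the only one of the 9 past 2-fold upwards there (4.98% of all genes), and 1.44-fold higher at P14 (0.53 ± 0.10, adjusted p = 0.00102). The effect was larger at P29 by 0.49 ± 0.14 (adjusted p = 0.0251), a call lost when P29 room air replicate 2 was left out (0.39, adjusted p = 0.105), without P14 hyperoxia replicate 2 (0.47, adjusted p = 0.0547) or without P14 room air replicate 2 (0.45, adjusted p = 0.0812).

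Macrophage and monocyte markers were split in both comparisons, with 4 of 12 higher and 4 lower at P29 (median 0.17) and the same counts at P14 (median -0.10). Over all genes, 34.2% were higher and 25.5% lower at P29, and 32.3% and 22.8% at P14. Counts and sums take each marker's brightest probe set. At P29, other probe sets gave -0.79, -0.72 and 0.64 for Ccr2 (0.42 on the brightest) and -0.81 and -0.09 for Csf1r (0.15). A dim one gave -0.60 for Cx3cr1 (0.39). Fcgr1 also changed sign and Marco did not. The log2 of the summed level of these markers was 12.83 to 12.94 in P29 hyperoxia, against 12.77 to 12.79 in P29 room air, and 12.31 to 12.40 in P14 hyperoxia, against 12.05 to 12.13 in P14 room air. All 9 neutrophil markers tested were lower at both ages, with summed levels of 9.84 to 9.94 in P29 hyperoxia, against 12.45 to 13.07 in P29 room air, and 10.39 to 10.56 in P14 hyperoxia, against 12.30 to 12.34 in P14 room air. None of the markers in these lists lay below the filter, and their part in the F13a1 and Plaur results was not tested. The neutrophil markers Mpo and Cxcr2, and the macrophage and monocyte markers Itgam and Siglecf, reached 5 on room-air arrays alone. They passed the filter only through the groups where they are high, so the counts of lower markers describe the genes tested and no more.

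**Figure D3:**
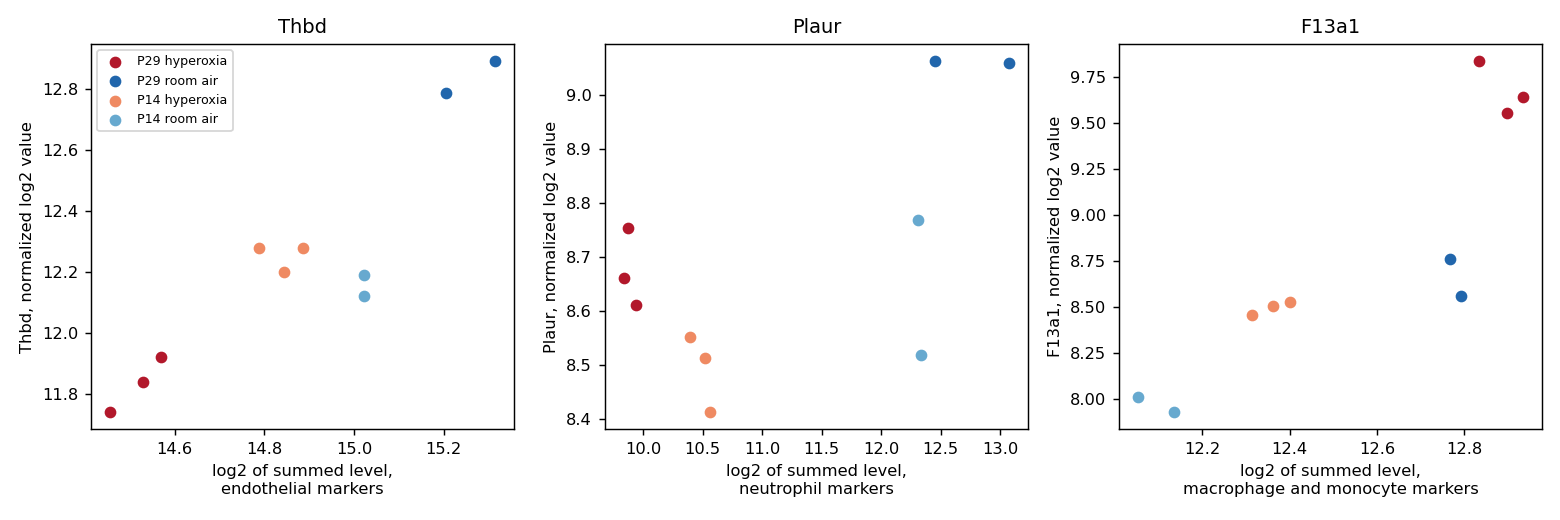
Normalized log2 value of Thbd, Plaur and F13a1 (vertical axes) against the log2 of the summed level of endothelial, neutrophil and macrophage or monocyte markers (horizontal axes); each point is 1 of the 10 arrays, coloured by group. Thbd and the endothelial sum are lowest in P29 hyperoxia and highest in P29 room air. F13a1 and its marker sum are highest in P29 hyperoxia, the sum at 12.83 to 12.94, against 12.77 to 12.79 in P29 room air. Sums take the brightest probe set of each marker, and the sign for some macrophage or monocyte markers depends on the probe set.

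The plasminogen activator genes did not move together. Plat, the tissue activator, was at 9.26, 9.50 and 9.46 in P29 hyperoxia, against 8.90 and 8.75 in P29 room air, and at 10.20, 10.08 and 10.20 in P14 hyperoxia, against 10.48 and 10.36 in P14 room air. It was highest at P14 and lowest in P29 room air, with no overlap between neighbouring groups. It was 1.496-fold higher in hyperoxia at P29 (0.58 ± 0.10, SE, adjusted p = 0.0004). At P14 it fell by 0.26 ± 0.10 (adjusted p = 0.0373), a call lost without P14 room air replicate 1 (-0.20) and without hyperoxia replicates 1, 2 or 3 (adjusted p = 0.0524, 0.112 and 0.0557). The P14 call was also lost with Y-linked gene level as a term (-0.24, adjusted p = 0.0584) and with array weights (-0.28, adjusted p = 0.0528). The effects at the ages differed by 0.84 ± 0.14 (adjusted p = 0.00132).

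The age course of Plat differed with it. In room air Plat fell by 1.598 ± 0.11 on the log2 scale at P29 relative to P14, a 3.03-fold decline (adjusted p = 7.09e-07), and in hyperoxia by 0.75 ± 0.09 (1.69-fold, adjusted p = 0.00012). The P29 hyperoxia level lay between that of P29 room air and that of P14. A dimmer probe set, 1458553_at, was called in none of the 5 comparisons, with -0.04 ± 0.14 at P29 and -0.32 ± 0.14 at P14.

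Plau, urokinase, was near the detection floor and no difference was called. Its values were 4.71, 4.71 and 5.11 in P29 hyperoxia, against 5.25 and 4.95 in P29 room air, and 5.03, 5.002 and 4.86 in P14 hyperoxia, against 4.98 and 5.11 in P14 room air. All neighbouring groups overlapped, and the other probe set was under 5 on every array. The 95% interval of the difference was -0.55 to 0.04 at P29 and -0.37 to 0.22 at P14. Without P29 hyperoxia replicate 3, the array with mixed sex-linked transcripts, Plau was called lower at P29 (-0.39, adjusted p = 0.0159). The same call was gained with each array centred on its 75th percentile (-0.39, adjusted p = 0.0347).

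Plaur, the urokinase receptor, was lower in hyperoxia at P29. It was at 8.66, 8.61 and 8.75 in P29 hyperoxia, against 9.06 and 9.06 in P29 room air, and at 8.51, 8.55 and 8.41 in P14 hyperoxia, against 8.77 and 8.52 in P14 room air. Only P29 room air stood clear of the other groups. The difference was -0.39 ± 0.09 (SE) at P29 (adjusted p = 0.00405). At P14 it was -0.15 with a 95% interval of -0.35 to 0.05 (adjusted p = 0.183), and -0.28 without P14 room air replicate 2. With quantile normalization Plaur was called lower at P14 (-0.27, adjusted p = 0.0471). The difference of the effects was -0.23 ± 0.13 (adjusted p = 0.229).

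**Figure D4:**
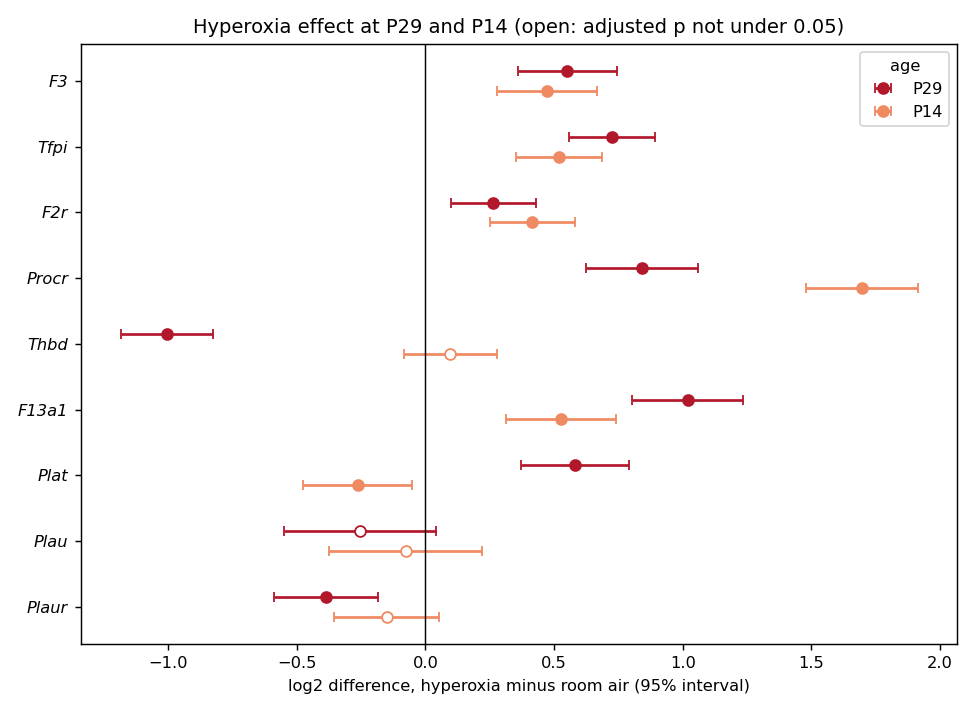
Log2 difference between hyperoxia and room air for each gene (horizontal axis) with its 95% interval, at P29 (upper point of each pair) and at P14 (lower point); open points did not reach an adjusted p under 0.05. Intervals at the 2 ages lie apart for Procr, Thbd, F13a1 and Plat, and Thbd and Plat have point estimates of opposite sign.

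Tested directly, the hyperoxia effect differed between the ages for 4 of the 9 genes, against 22.5% of all genes. The P29 effect minus the P14 effect was positive for Plat and F13a1 and negative for Procr and Thbd. The rise of F13a1 was larger at P29 and that of Procr smaller. Plat was lower in hyperoxia at P14 and higher at P29, and Thbd was lower at P29 and not called at P14. The difference of the effects was not called for F3 (0.08, 95% interval -0.19 to 0.35), Tfpi (0.21, -0.03 to 0.44), F2r (-0.15, -0.38 to 0.08), Plau (-0.18, -0.60 to 0.24) or Plaur. The actin end-to-end difference separated hyperoxia from room air at both ages. With it as a term in the fit, 5 of the 9 genes remained called at P29 (F3, Tfpi, Procr, F13a1 and, downwards, Thbd) and 3 at P14 (F3, Tfpi and Procr), and the 4 differences between the ages kept their calls. Most of the genes that lost a call kept a value of similar size with a wider error: Plat was at 0.57 ± 0.21 (SE) at P29 and -0.28 ± 0.22 at P14, F2r at 0.25 ± 0.16 and 0.41 ± 0.17, and F13a1 at 0.50 ± 0.23 at P14. Plaur at P29 was smaller, at -0.18 ± 0.19.

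With age, 4 of the 9 genes were higher and 2 lower at P29 than at P14 in room air (22.2% and 19.1% of all genes), and 3 were higher and 2 lower in hyperoxia (15.4% and 11.7%). F13a1 rose by 0.69 ± 0.11 (SE) in room air (adjusted p = 0.000348) and by 1.18 ± 0.09 in hyperoxia (adjusted p = 6.36e-06). Plaur was higher by 0.42 ± 0.10 in room air (adjusted p = 0.00609), with 0.18 ± 0.08 in hyperoxia (adjusted p = 0.128). F3 was higher by 0.27 ± 0.08 in hyperoxia (adjusted p = 0.0262), with 0.19 ± 0.10 in room air (adjusted p = 0.141). The F3 call in hyperoxia ended when replicate 2 or 3 of either age was left out (adjusted p = 0.0668 to 0.0963) and with Y-linked gene level as a term (0.0988). Tfpi on its brightest probe set was lower with age in room air by a small amount (-0.23, adjusted p = 0.0465); without any 1 of the 4 room-air arrays the value was -0.26 to -0.19 and was not called. With 27615 probe sets fitted together, the other Tfpi probe sets were called lower there (-0.94 on 1451791_at, -0.50 on 1451790_a_at and -0.34 on 1452432_at). In that fit the brightest was not called (adjusted p = 0.0676). Both P29 room-air arrays carried female RNA and both P14 ones male RNA, so age and sex cannot be told apart in room air.

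Other genes of the clotting pathway were described from lists. Their counts stand beside shares over all genes of 34.2% higher and 25.5% lower at P29, and 32.3% and 22.8% at P14. Of 19 clotting factors, fibrinogen chains and proteins that process them, 11 lay below the filter, among them the 3 fibrinogen genes Fga, Fgb and Fgg, which the liver makes and which stayed under 5 on all arrays. Of the 8 tested, 1 was higher and 5 lower at P29 (median -0.61), and 2 were higher and 4 lower at P14 (median -0.36). A gene that passes the filter only through the group where it is high had to differ, so such counts describe the genes tested and no more. F7, the partner of tissue factor, was at 6.34, 5.91 and 6.13 in P29 hyperoxia, against 7.97 and 8.25 in P29 room air, and at 5.78, 5.66 and 5.78 in P14 hyperoxia, against 6.75 and 6.63 in P14 room air. It was 3.96-fold lower at P29 (adjusted p = 6.11e-07) and 1.92-fold lower at P14 (adjusted p = 0.000127), while F3 was higher on the same arrays.

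F10, which tissue factor and factor VII activate, fell by 1.43 ± 0.16 (SE) at P29 (adjusted p = 2.41e-05; -0.77 on another probe set) and by 0.88 ± 0.16 at P14 (adjusted p = 0.000785; -0.32). Its cofactor gene F5 fell by 0.79 ± 0.11 at P29 (adjusted p = 0.000122; -0.34 on another probe set) and stood at 0.01 ± 0.11 at P14. Vkorc1, the vitamin K reductase that clotting factors depend on, fell by 0.62 ± 0.09 at P29 (adjusted p = 0.000189) and by 0.84 ± 0.09 at P14 (adjusted p = 3.56e-05). Lman1, which helps export factors V and VIII from the cell, was the one of these genes that rose at P29 (0.26 ± 0.07, adjusted p = 0.00951). Vwf, the platelet-binding protein of endothelium, was 2.79-fold higher at P14 (adjusted p = 1.69e-05), with -0.34 ± 0.14 at P29 (adjusted p = 0.0592) and a difference of -1.82 ± 0.20 between the effects (adjusted p = 0.000138). Mcfd2, the partner of Lman1, was the other to rise at P14 (0.21 ± 0.08, adjusted p = 0.0386).

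Of 12 further anticoagulant genes 10 were tested; 3 were higher and 4 lower at P29 (median -0.02), and 4 were higher and 1 lower at P14 (median -0.16). Tfpi2, a relative of Tfpi, was 3.12-fold higher at P29 (adjusted p = 1.19e-06) and 1.27-fold higher at P14 (adjusted p = 0.0264). Its values were 8.17, 8.21 and 8.23 in P29 hyperoxia, against 6.72 and 6.41 in P29 room air, without overlap. Pros1, protein S, the cofactor of activated protein C, rose by 0.68 ± 0.08 (SE) at P29 (adjusted p = 4.07e-05) and by 0.63 ± 0.08 at P14 (adjusted p = 9.67e-05). Hs3st1, the enzyme that gives heparan sulphate its antithrombin-binding site, was 2.84-fold lower at P29 (adjusted p = 6.27e-07) and 1.41-fold higher at P14 (adjusted p = 0.00131), with a difference of -2.00 ± 0.14 (adjusted p = 9.35e-06). Anxa5, which shields anionic phospholipid, fell by 0.52 ± 0.08 at P29 (adjusted p = 0.000236) and by 0.63 ± 0.08 at P14 (adjusted p = 8.61e-05). Gas6, a vitamin K-dependent ligand, rose by 0.31 ± 0.09 and 0.85 ± 0.09 on its leading probe set, with -0.16 and -0.18 on another.

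Of 15 regulators of fibrinolysis 10 were tested, and 3 were higher and 3 lower at each age (median 0.07 at P29 and -0.20 at P14). Vtn, vitronectin, an adhesive protein of plasma and matrix, was 5.64-fold lower at P29 (-2.50 ± 0.17, SE, adjusted p = 8.87e-07; -1.59 on another probe set) and 2.18-fold lower at P14 (adjusted p = 0.00026). A2m, a broad protease inhibitor, rose by 0.73 ± 0.22 at P29 (adjusted p = 0.0147) and fell by 2.25 ± 0.22 at P14 (adjusted p = 1.99e-05). Thbs1, thrombospondin, rose by 0.74 ± 0.28 at P29 (adjusted p = 0.0367) and by 1.47 ± 0.28 at P14 (adjusted p = 0.00108), with 0.51 and 1.06 on another probe set. Its P29 arrays overlapped, at 8.54, 9.35 and 9.33 in hyperoxia, against 8.74 and 7.92 in room air. Serpinf2, the plasmin inhibitor antiplasmin, fell by 0.50 ± 0.10 at P29 (adjusted p = 0.00195) and stood at -0.19 ± 0.10 at P14 (adjusted p = 0.135). The receptor subunit gene S100a10 gave 0.37 ± 0.09 at P29 and 0.38 ± 0.09 at P14 on its leading probe set but -0.32 and -0.38 on the next brightest. Plg, the gene of the plasmin precursor, was below the filter.

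**Figure D5:**
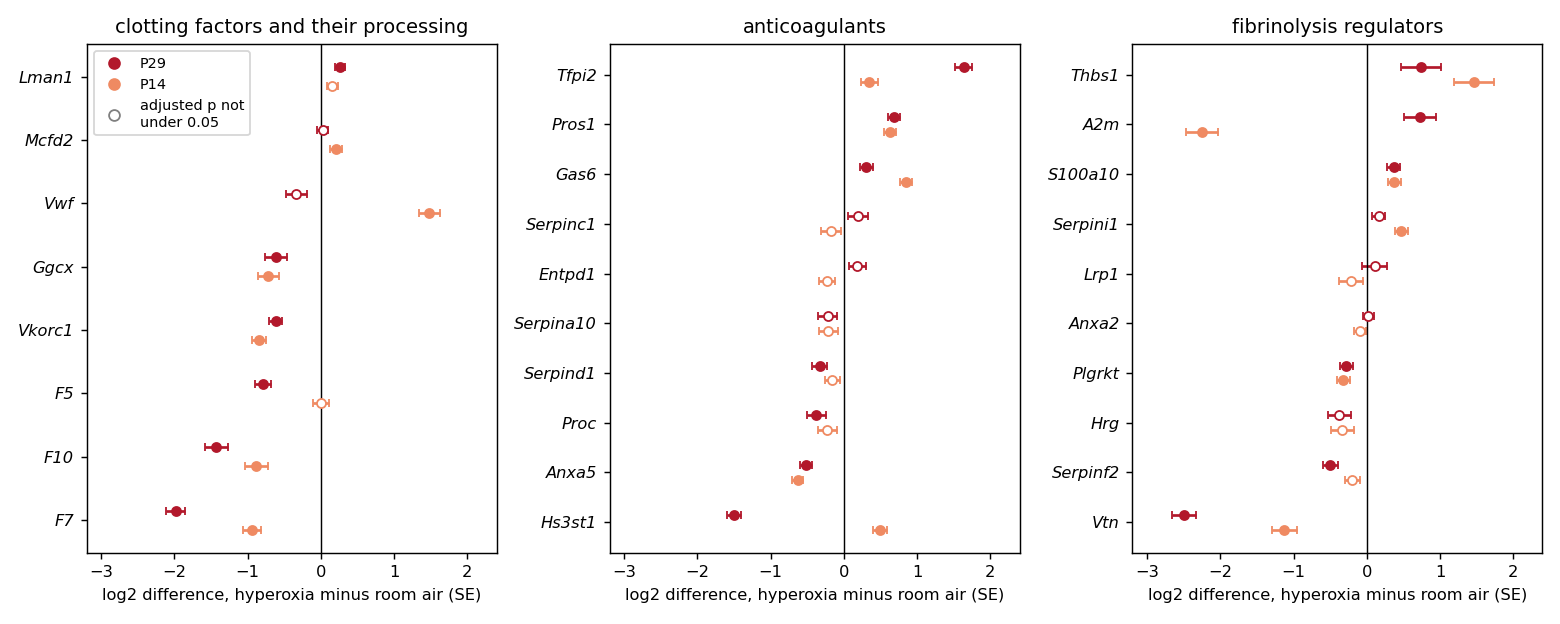
Log2 difference between hyperoxia and room air (horizontal axis, with SE) for the tested genes of 3 pathway lists at P29 (upper point of each pair) and P14 (lower point); open points did not reach an adjusted p under 0.05. F7, F10 and Vtn are lower at both ages, Tfpi2 and Pros1 higher at both, and Vwf, Hs3st1 and A2m have point estimates of opposite sign at the 2 ages.

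For each gene the most similar patterns among the other 14988 genes were ranked by Pearson's r over the 10 arrays, which share 4 groups, so high values are common. The 3 closest to Procr were Gprc5b, Amy1 and Sbspon (r = 0.996, 0.993 and 0.993). The 3 closest to Thbd were Clec14a, Tek and Tspan18 (r = 0.994, 0.983 and 0.976). For Plat they were Igf2, P2ry14 and Vcan (r = 0.987, 0.986 and 0.985), and for F13a1 Fetub, Hsph1 and Rexo2 (r = 0.989, 0.988 and 0.987). The single closest were Plb1 to F3 (0.982), Cstf2 to Tfpi (0.992), Zfp719 to F2r (0.986), Susd5 to Plaur (0.976) and 1700040G22Rik to Plau (0.907). Among the 9 genes themselves, r was 0.901 between Tfpi and F2r, 0.883 between F3 and Procr, and -0.767 between Plat and Plaur.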

How the data were processed

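The deposited values of 10 Affymetrix arrays (45101 probe sets) were normalized log2 values of the authors; per the submitters' processing notes Partek 6.4 and GCRMA were used. The settings, which shape low values and folds, were not found in the labels or headers. The log2 scale was read from the values (2.51 to 15.00 over all arrays). Groups and replicate numbers came from the sample titles. Of the probe sets, 34958 had 1 gene symbol in the platform annotation. The brightest per gene was used, and 14989 of 18194 genes were tested, those that reached a log2 value of 5 on 2 or more arrays.

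One model with a mean per group, over the 10 arrays, was fitted by limma 3.58.1 in R 4.3.3 (moderated statistics, 6 residual and 5.09 prior degrees of freedom), two-sided, with Benjamini-Hochberg adjustment over all genes tested and a threshold of 0.05. SE is that of the fitted contrast. The step was tested on simulated data. The members and lists were chosen with earlier results of these data known. Genes of other lists were named by rule: up to 4 of smallest p per list and comparison, and members whose call opposes their list. List genes beyond that, and array-level controls, were chosen after their values were seen. Alternatives were other filters, probe set choices, moderation, normalizations, array weights, a replicate block, terms for the actin control and Y-linked genes, and leaving out arrays. The number of arrays limits the precision.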

Additional observations from a re-analysis of the deposited data

Results flagged for a closer look

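The hyperoxia effect differed between the ages, by the test of the difference itself (effect at P29 minus effect at P14, limma, adjusted over all genes), for 4 of the 9 genes. The difference was -0.85 for Procr, higher in hyperoxia on 3 of 3 arrays at both ages, and -1.10 for Thbd, lower on 3 of 3 hyperoxia arrays at P29. It was 0.84 for Plat, where the 3 hyperoxia arrays lay above room air at P29 and below it at P14, and 0.49 for F13a1, higher in hyperoxia on 3 of 3 arrays at both ages. Both P29 room-air arrays carried female transcripts and all P14 arrays male ones, while the P29 hyperoxia arrays were mixed. Sex was thus unbalanced between the oxygen groups at P29 and between the ages. With Y-linked gene level as a term, these 4 differences kept their calls. Groups of 2 or 3 arrays were not searched for outlying arrays.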

How the results depend on the processing

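With the actin end-to-end difference (3' over 5') added to the fit, which separates hyperoxia from room air, genes called numbered 2905 at P29 (8948 without the term) and 1387 at P14 (8249), and members called 5 of 9 and 3 of 9. With Y-linked gene level as a term, 3995 genes were called between P29 and P14 in room air (6195 without it). Centring each array on its 75th percentile moved the median of all genes to -0.10 at P29 and -0.07 at P14, and the share of calls that were higher to 40.8% at P29 (57.2% as deposited) and to 44.7% at P14 (58.6%). Leaving out 1 array at a time gave 7086 to 8583 genes and 7 to 9 members at P29, 5911 to 7539 genes and 5 to 7 members at P14, 2575 to 3332 genes and 3 to 4 members for the difference of the effects, 4938 to 5678 genes and 4 to 5 members with age in room air, and 3024 to 3335 genes and 4 to 5 members with age in hyperoxia. Of the member results under alternatives, 754 kept direction and side of the threshold, 38 lost the call, 6 gained one and 11 changed sign. The sign changes at P14 were Tfpi with the mean of its probe sets (-0.0541), Plau with quantile normalization (0.0364) or the actin term (0.14), Thbd with the 75th percentile (-0.0025) and Plaur with the actin term (0.0667). With age in room air, Plau ranged from -0.10 to 0.21 without 1 array (-0.0085 without P14 room air replicate 1). With age in hyperoxia they were F2r with the probe set of highest variance (0.016) and Tfpi with the Y-linked term (0.0257), and Tfpi ranged from -0.0416 to 0.0155 without 1 array (0.0012 without P14 hyperoxia replicate 2). Of these, Tfpi at P14 alone was called as deposited. The causes were not tested.

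Same-numbered arrays did not deviate together (r from -0.099 to 0.197 over 13 pairs, 2 of them over 0.1), and 3 of 10 arrays correlated best with an array of their own number, so the numbers were not read as pairs. With the replicate number as a block, 8781 genes and 8 members were called at P29, 8032 genes and 6 members at P14 and 3252 genes and 4 members for the difference of the effects, and 1 member call ended, that of Tfpi with age in room air (adjusted p = 0.0632). Plau, near the floor, is the member that signal over background limits.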

Other observations

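Platelet transcripts were also measured. Of 10 platelet and megakaryocyte markers tested 3 were higher and 6 lower at P29 in hyperoxia (median -0.54), and 3 were higher and 5 lower at P14 (median -0.24). Shares over all genes were 34.2% higher and 25.5% lower at P29, and 32.3% and 22.8% at P14. Of the higher markers, Itgb3 stood at 0.64 at P29 on its brightest probe set and at -0.34 on another. Gp1bb stood at 0.54 and -0.295 at P29, and at 0.435 and -0.25 at P14. Gp6, counted as lower at both ages, reached the filter's value of 5 on room-air arrays alone. Pf4, platelet factor, was 2.05-fold higher at P29 (adjusted p = 1.34e-05) and 1.26-fold higher at P14 (adjusted p = 0.0198). Ppbp, the other major platelet chemokine gene, was 2.70-fold lower at P29 (adjusted p = 7.78e-06) and 1.94-fold lower at P14 (adjusted p = 0.000174). The log2 of the summed level of the list overlapped between the groups at both ages, at 10.87 to 10.92 in P29 hyperoxia, against 10.67 to 10.88 in P29 room air, and 10.88 to 10.99 in P14 hyperoxia, against 10.79 to 10.98 in P14 room air.

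Hepatocyte markers were also measured. Of 8 hepatocyte markers tested 0 were higher and 3 lower at P29, and 0 were higher and 4 lower at P14, beside the same shares over all genes. Alb, albumin, differed by -0.10 ± 0.10 (SE) at P29 (adjusted p = 0.404) and by -0.04 ± 0.10 at P14 (adjusted p = 0.727). Fabp1, a fatty acid binding protein of liver and gut, was at 4.14, 4.27 and 3.93 in P29 hyperoxia, against 7.38 and 8.06 in P29 room air, and at 4.09, 3.88 and 4.05 in P14 hyperoxia, against 5.98 and 5.09 in P14 room air. It fell by 3.603 ± 0.24 on the log2 scale at P29 (adjusted p = 8.64e-07) and by 1.53 ± 0.24 at P14 (adjusted p = 0.000363), with all hyperoxia arrays under the filter's value of 5. The log2 of the summed level of the list was 8.49 to 8.75 in P29 hyperoxia, against 9.33 to 9.49 in P29 room air, and 8.545 to 8.745 in P14 hyperoxia, against 8.89 to 9.13 in P14 room air.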
